A study of Equus caballus with 33 samples.

Results

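The genes described here are 6 secreted Wnt antagonists (FRZB, SFRP5, SFRP1, WIF1, DKK1 and DKK3) and 2 common Wnt target genes (AXIN2 and LEF1) in articular cartilage of the horse. Each was read from the array probe set to which the platform annotation gives that symbol alone, and all 8 symbols had exactly 1 such probe set. They are 8 of the 16661 named genes among the 25923 probe sets of the array. Gene expression was measured on 33 Affymetrix arrays in cartilage explants taken after death from the metacarpal bone, near the fetlock joint, of 3 horses with no sign of joint disease. Stimulated explants were cultured with recombinant equine interleukin-1β (IL-1β, written IL-1b in the plots), an inflammatory cytokine of the joint, at 10 ng/mL and were sampled on days 3, 9, 15 and 21 and for the last time on day 27. Unstimulated explants were cultured in the same way without the cytokine and were taken at the same times and also at day 0, the end of a first period in medium that all explants shared. Each of the 11 groups held 3 arrays, numbered as replicates 1 to 3, and each array came from a pair of explants whose cells were released with trypsin and collagenase. Arrays that share a number are read as 1 horse; this is inferred from the sample descriptions. The horses' ages were not given in the sources used here.

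Wnt proteins are secreted signals that bind Frizzled receptors together with the coreceptors LRP5 and LRP6. In the canonical branch this binding stops the destruction of β-catenin, which then enters the nucleus and, with TCF and LEF factors, switches on target genes such as AXIN2. Antagonists of the SFRP family (FRZB is also known as SFRP3) and WIF1 bind the Wnt ligands themselves, whereas DKK1 blocks the LRP coreceptors. In articular cartilage, FRZB is known as a gene of mature chondrocytes that limits Wnt signalling, and both loss and excess of Wnt signalling are known to harm the tissue.

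On average over the 5 days, FRZB, SFRP5, WIF1, DKK3 and AXIN2 were lower and DKK1 was higher in stimulated than in unstimulated explants, while SFRP1 and LEF1 did not pass the test. The test was limma's moderated test on the deposited log2 values, with Benjamini-Hochberg adjustment over all probe sets and 0.05 as the threshold. Thus 1 of the 8 genes was higher and 5 were lower, or 6 in all, against 30.8% of all probe sets called in this comparison (15.6% higher and 15.3% lower). Higher and lower here compare stimulated with unstimulated explants, and the comparison with day 0 is given below. The median difference of the 8 genes was -0.51 on the log2 scale, against -0.044 over all probe sets. A value below is the RMA signal of a probe set on the log2 scale and a difference is stimulated minus unstimulated unless said otherwise. Levels were not compared between genes, since probes differ in how brightly they bind. In bulk tissue, fewer cells of a type and less RNA per cell cannot be told apart.

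**Figure D1:**
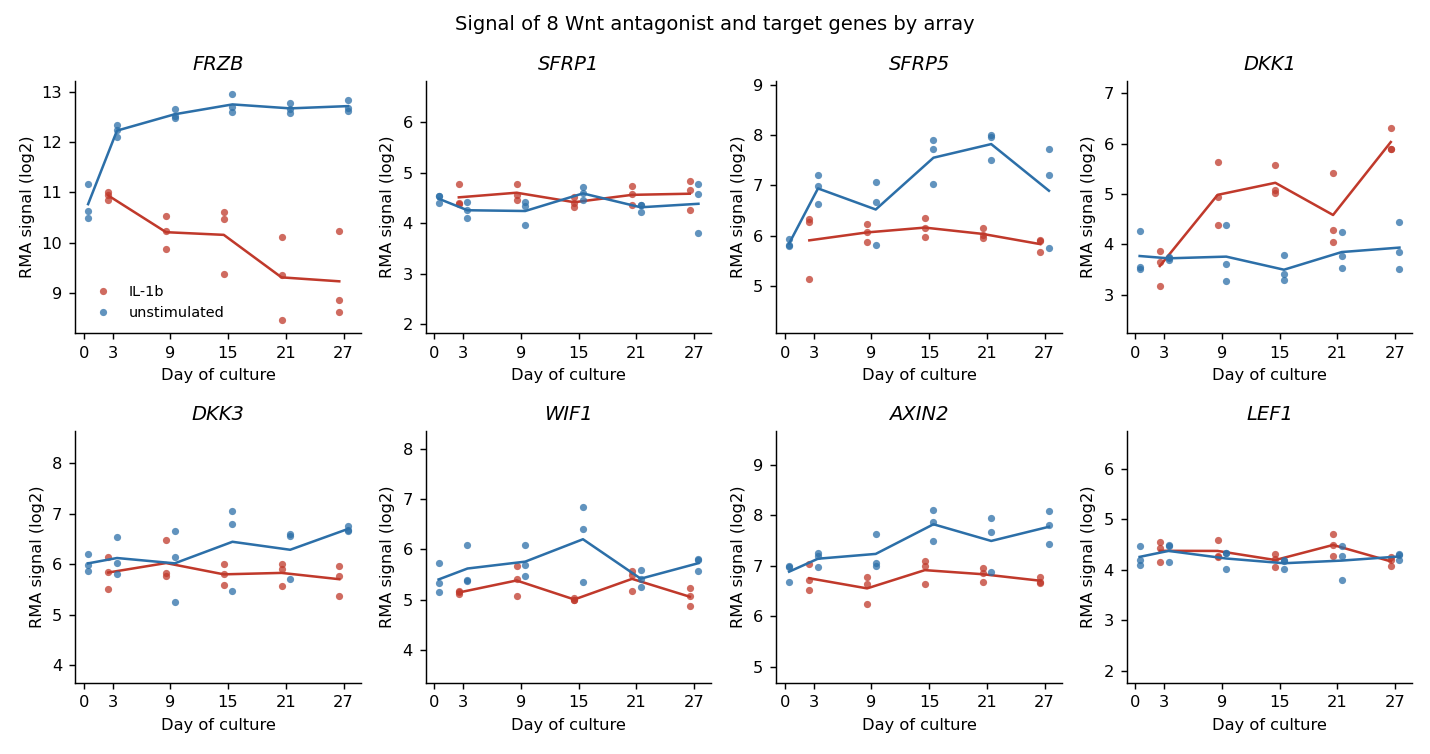
RMA signal on the log2 scale (vertical axes, each spanning the same 5 log2 units) against day of culture (horizontal axes) for 8 genes, with 1 point per array and lines through the means of 3 arrays. Stimulated explants are red and unstimulated explants blue; the 15 stimulated FRZB values, between 8.48 and 11.01, all lie below the 15 unstimulated values of days 3 to 27, between 12.09 and 12.94, and DKK1 reaches its highest values in the stimulated explants of day 27.

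FRZB had the largest average difference of the 8 genes. At day 3 it was 10.85, 10.95 and 11.01 in stimulated explants, against 12.24, 12.35 and 12.09 in unstimulated explants. At day 9 it was 10.53, 9.87 and 10.24 in stimulated explants, against 12.52, 12.48 and 12.65 in unstimulated explants. At day 15 it was 10.48, 9.38 and 10.61 in stimulated explants, against 12.59, 12.70 and 12.94 in unstimulated explants. The stimulated arrays were thus the lower ones in every replicate at these days, with a gap of more than 1 log2 unit between the groups. At day 21 it was 9.35, 8.48 and 10.12 in stimulated explants, against 12.66, 12.58 and 12.77 in unstimulated explants. At day 27 it was 8.86, 8.62 and 10.23 in stimulated explants, against 12.62, 12.68 and 12.84 in unstimulated explants. The groups did not overlap at any of the 5 days, and stimulated replicate 3 stayed well above the other two at the last days. The spread between stimulated replicates was wider late in culture, with an SD of 0.87 at day 27 and of 0.08 at day 3, while in unstimulated explants the SD was 0.11 at day 27 and 0.13 at day 3.

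Averaged over days, FRZB was lower by a log2 difference of -2.61 ± 0.15 (SE), a 6.10-fold lower signal, and it was lower in 15 of 15 pairs, a pair being the stimulated and unstimulated arrays with equal day and replicate number (limma adjusted p = 2.02e-13). Its difference was -1.29 ± 0.34 at day 3 (adjusted p = 0.0322), where it was the only one of the 8 genes called, against 3.32% of all probe sets. The day 3 call was lost without replicate 1 (adjusted p = 0.428) or without replicate 2 (adjusted p = 0.126), and with the quantile normalisation repeated (-1.24, adjusted p = 0.0547). The difference was -2.34 at day 9 (adjusted p = 3.32e-05), -2.59 at day 15 (adjusted p = 5.64e-06), -3.35 at day 21 (adjusted p = 8.99e-08) and -3.48 at day 27 (adjusted p = 4.23e-08). The FRZB signal at day 27 was thus 11.1-fold lower in stimulated explants. By replicate number the mean difference was -2.51, -3.10 and -2.22, so that in each number the stimulated signal was lower by more than 2 log2 units.

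The FRZB difference was larger late than early. The difference at day 27 minus that at day 3 was -2.19 ± 0.49 (limma adjusted p = 0.0225), and 2 of the 8 genes, FRZB and DKK1, passed this test, against 1.10% of all probe sets. The FRZB call was lost without the unstimulated day 27 array of replicate 3 (difference -2.13, adjusted p = 0.0516), without replicate 1 (adjusted p = 0.394) or without replicate 2 (adjusted p = 0.191). Within stimulated explants alone, FRZB at day 27 was lower than at day 3 by a difference of -1.70 ± 0.34 (adjusted p = 0.00606), and 2 of the 8 genes were called in this contrast, against 3.28% of all probe sets. That call was also lost without replicate 1 (adjusted p = 0.233) or without replicate 2 (adjusted p = 0.114), and with only the 2 groups of the contrast in the fit (adjusted p = 0.0795). The moderated F-test, which asks whether the difference varied over the 5 days in any form, called 0 of the 8 genes against 0.409% of all probe sets, although FRZB, DKK1 and WIF1 had an unadjusted p of 0.000837, 0.000729 and 0.0397. With the replicate number as a block in the fit, FRZB and DKK1 passed it (adjusted p = 0.0416 and 0.0428).

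Ordered by mean, FRZB stood highest in unstimulated explants of days 15, 27, 21 and 9, whose ranges overlapped from one to the next. Unstimulated day 3 came next and overlapped with neither neighbour. Stimulated day 3, unstimulated day 0 and stimulated days 9, 15, 21 and 27 followed in that order, each overlapping with the next.

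SFRP5, a secreted Frizzled-related antagonist, followed the same direction with a smaller change. At day 3 it was 6.27, 5.14 and 6.32 in stimulated explants, against 7.20, 6.62 and 6.99 in unstimulated explants. At day 9 it was 5.88, 6.08 and 6.24 in stimulated explants, against 6.68, 5.82 and 7.06 in unstimulated explants. The day 3 groups did not overlap, but at day 9 unstimulated replicate 2 lay below all stimulated values. At day 15 it was 5.98, 6.15 and 6.36 in stimulated explants, against 7.73, 7.03 and 7.89 in unstimulated explants. At day 21 it was 5.96, 6.14 and 6.01 in stimulated explants, against 8.0, 7.50 and 7.96 in unstimulated explants. At day 27 it was 5.69, 5.90 and 5.92 in stimulated explants, against 7.21, 5.76 and 7.71 in unstimulated explants. The groups stood clearly apart at days 15 and 21, and at day 27 unstimulated replicate 2 lay among the stimulated values.

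The average difference of SFRP5 was -1.14 ± 0.16, a 2.21-fold lower signal, in 13 of 15 pairs (limma adjusted p = 1.68e-06). By day the differences were -1.03 at day 3 (adjusted p = 0.137, or 0.0366 with the replicate block), -0.45 at day 9 (adjusted p = 0.568) and -1.39 at day 15 (adjusted p = 0.00857). At day 21 the difference was -1.78 ± 0.35 (adjusted p = 0.000818) and at day 27 it was -1.06 (adjusted p = 0.0435). The day 27 call was lost without the unstimulated day 27 array of replicate 3, where the difference was -0.65 (adjusted p = 0.324), and without replicate 1 (-0.83, adjusted p = 0.384) or replicate 3 (-0.69, adjusted p = 0.417). It was also lost with only the day 27 groups in the fit (adjusted p = 0.221) and with the quantile normalisation repeated (adjusted p = 0.0557). The day 15 call was lost without replicate 1 (adjusted p = 0.199) or without replicate 3 (adjusted p = 0.0792), and the day 21 call without replicate 1 (adjusted p = 0.0818). By number the mean difference was -1.41, -0.66 and -1.35. At day 21, 2 of the 8 genes, FRZB and SFRP5, were called against 12.1% of all probe sets.

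WIF1, a secreted factor that binds Wnt ligands through its own domain type, was lower in 14 of 15 pairs. Over the 15 arrays of each arm it ranged from 4.87 through a median of 5.15 to 5.67 in stimulated explants, against 5.26 through 5.59 to 6.84 in unstimulated explants of days 3 to 27. At day 15 it was 4.99, 4.99 and 5.04 in stimulated explants, against 6.41, 5.35 and 6.84 in unstimulated explants. The day 15 groups did not overlap, and the unstimulated arrays of replicates 1 and 3 were the highest WIF1 values of all 33 arrays. The average difference was -0.54 ± 0.11 (limma adjusted p = 0.000447). Day 15 was the only day called, at -1.19 ± 0.26 (adjusted p = 0.00176), and this call was lost without replicate 1 (adjusted p = 0.0937) or replicate 3 (adjusted p = 0.0574), and with only the day 15 groups in the fit (adjusted p = 0.084). At day 27 the difference was -0.67 (adjusted p = 0.083, or 0.0455 with the replicate block). At day 21 the groups had nearly the same mean, 5.42 in both.

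SFRP1, another antagonist of the Frizzled-related family, moved little. It ranged from 4.25 through a median of 4.52 to 4.84 in stimulated explants, against 3.80 through 4.36 to 4.78 in unstimulated explants of days 3 to 27. The ranges overlapped almost wholly. The average difference was 0.18 ± 0.09, with a 95% interval of 0.0032 to 0.35, and was higher in 11 of 15 pairs (limma adjusted p = 0.118). Repeating the quantile normalisation brought it past the threshold at 0.25 (adjusted p = 0.0174). SFRP1 lay below the median mean signal of all probe sets (5.27), as did DKK1 and LEF1, and differences near the lowest signals can be understated by RMA.

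**Figure D2:**
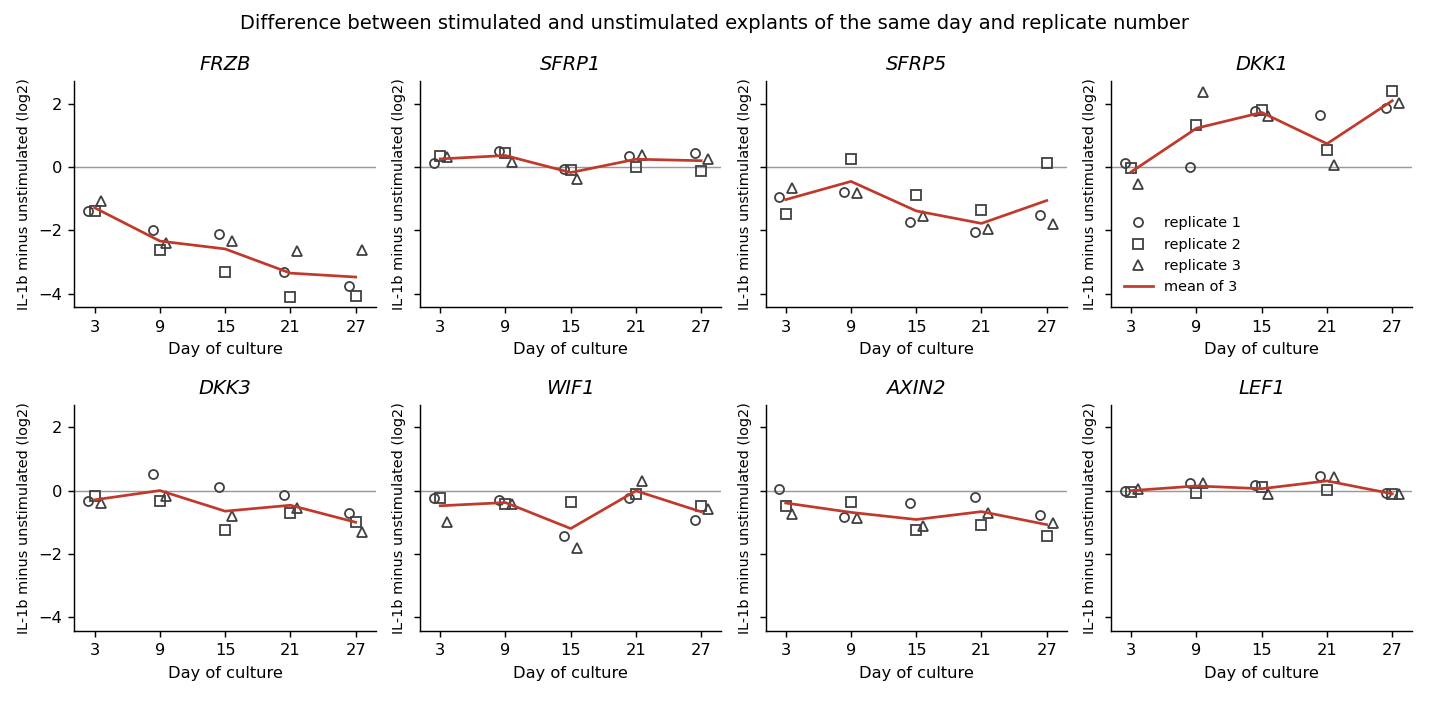
Difference between the stimulated and the unstimulated array of the same day and replicate number (log2, vertical axes) against day of culture (horizontal axes) for 8 genes, with 1 symbol per replicate number and a red line through the mean of 3. FRZB is below 0 in 15 of 15 pairs and its mean goes further below 0 with time, while DKK1 is above 0 in 12 of 15 pairs and its mean starts at -0.15 at day 3.

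DKK1, which blocks the LRP5 and LRP6 coreceptors, was the only one of the 8 genes called higher in the average over days with the values as deposited. At day 3 it was 3.87, 3.66 and 3.18 in stimulated explants, against 3.75, 3.70 and 3.73 in unstimulated explants. At day 9 it was 4.38, 4.94 and 5.63 in stimulated explants, against 4.39, 3.61 and 3.28 in unstimulated explants. The groups overlapped at both days, at day 9 only through replicate 1, where both arms were level. At day 15 it was 5.57, 5.08 and 5.02 in stimulated explants, against 3.80, 3.29 and 3.40 in unstimulated explants. At day 21 it was 5.41, 4.05 and 4.29 in stimulated explants, against 3.78, 3.53 and 4.24 in unstimulated explants. At day 27 it was 6.30, 5.90 and 5.89 in stimulated explants, against 4.45, 3.51 and 3.85 in unstimulated explants. The groups stood apart at days 15 and 27, and at day 21 a single stimulated replicate was high.

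The average difference of DKK1 was 1.13 ± 0.15, a 2.18-fold higher signal, in 12 of 15 pairs (limma adjusted p = 1.03e-06). By replicate number it was 1.07, 1.20 and 1.10, so that the 3 numbers lay close together. By day it was -0.15 at day 3 (adjusted p = 0.956), 1.22 ± 0.34 at day 9 (adjusted p = 0.0224), 1.72 at day 15 (adjusted p = 0.000774), 0.74 at day 21 (adjusted p = 0.185) and 2.09 at day 27 (adjusted p = 6.45e-05). The day 9 call was lost without replicate 2 (adjusted p = 0.314), without replicate 3 (0.66, adjusted p = 0.465) and with only the day 9 groups in the fit (adjusted p = 0.131), and the day 15 call without replicate 2 (adjusted p = 0.0541). At day 9, 2 of the 8 genes, FRZB and DKK1, were called against 7.54% of all probe sets.

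The DKK1 difference at day 27 minus that at day 3 was 2.25 ± 0.48 (limma adjusted p = 0.0169). That call was lost without replicate 2 (adjusted p = 0.36) or without replicate 3 (adjusted p = 0.143). Within stimulated explants DKK1 at day 27 was higher than at day 3 by a difference of 2.46 ± 0.34 (adjusted p = 0.000145), which was lost without replicate 2 (2.57, adjusted p = 0.0598). The moderated F-test over stimulated days 3 to 27 called FRZB (adjusted p = 0.028) and DKK1 (adjusted p = 0.00193), 2 of the 8 genes, against 0.903% of all probe sets. FRZB did not pass it without replicate 1 (adjusted p = 0.86) or replicate 2 (adjusted p = 0.512), nor did DKK1 without replicate 2 (adjusted p = 0.353) or replicate 3 (adjusted p = 0.0744). In the order of DKK1 levels, stimulated day 27 stood first and did not overlap with the next, stimulated day 15. Stimulated days 9 and 21 came next, and below them all unstimulated groups and stimulated day 3 overlapped one with the next.

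DKK3, a Dickkopf family member whose part in Wnt signalling is less settled than that of DKK1, was lower in 13 of 15 pairs. It ranged from 5.36 through a median of 5.83 to 6.48 in stimulated explants, against 5.24 through 6.55 to 7.05 in unstimulated explants of days 3 to 27. At day 27 it was 5.97, 5.77 and 5.36 in stimulated explants, against 6.68, 6.76 and 6.66 in unstimulated explants, with no overlap. The average difference was -0.48 ± 0.15 (limma adjusted p = 0.0166), and it was -0.10, -0.68 and -0.64 by replicate number. The average call was lost without replicate 2 (-0.37, adjusted p = 0.284) or without replicate 3 (-0.39, adjusted p = 0.137). Day 27 was the only day called, at -1.0 ± 0.34 (adjusted p = 0.0464). That call was lost without the unstimulated day 27 array of replicate 3 (-1.02, adjusted p = 0.0994), without replicate 2 (adjusted p = 0.271) or without replicate 3 (adjusted p = 0.24), and with the quantile normalisation repeated (adjusted p = 0.0603).

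AXIN2, a scaffold of the β-catenin destruction complex and a direct target of canonical Wnt signalling in many tissues, was lower in 14 of 15 pairs. At day 3 it was 7.03, 6.71 and 6.52 in stimulated explants, against 6.97, 7.20 and 7.25 in unstimulated explants. At day 9 it was 6.24, 6.63 and 6.78 in stimulated explants, against 7.06, 7.0 and 7.64 in unstimulated explants. The groups overlapped at day 3, through replicate 1, and not at day 9. At day 15 it was 7.10, 6.64 and 7.0 in stimulated explants, against 7.49, 7.87 and 8.11 in unstimulated explants. At day 21 it was 6.69, 6.86 and 6.95 in stimulated explants, against 6.87, 7.94 and 7.67 in unstimulated explants. At day 27 it was 6.67, 6.66 and 6.78 in stimulated explants, against 7.44, 8.08 and 7.80 in unstimulated explants. The stimulated values stayed within a narrow band, and the lowest unstimulated array of these days was replicate 1 at day 21.

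The average difference of AXIN2 was -0.74 ± 0.10, a 1.67-fold lower signal (limma adjusted p = 1.56e-06). It was -0.91 at day 15 (adjusted p = 0.0076) and -1.07 ± 0.23 at day 27 (adjusted p = 0.0015). At day 9 it was -0.68 (adjusted p = 0.07, or 0.0405 with the replicate block) and at day 21 it was -0.66 (adjusted p = 0.061, or 0.0363 with the replicate block), with a range of -0.90 to -0.45 without 1 replicate number at day 21, while at day 3 it was -0.39 (adjusted p = 0.577). The day 15 call was lost without replicate 2 (adjusted p = 0.196) or replicate 3 (adjusted p = 0.122), and the day 27 call without replicate 2 (adjusted p = 0.0926). By replicate number the mean difference was -0.42, -0.92 and -0.89. At day 15, 5 of the 8 genes were called (FRZB, SFRP5, WIF1, DKK1 and AXIN2), against 12.7% of all probe sets. At day 27, 5 were called again, with DKK3 in place of WIF1, against 14.8% of all probe sets.

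LEF1, a transcription factor that binds β-catenin and is itself a common Wnt target, ranged from 4.06 through a median of 4.27 to 4.71 in stimulated explants, against 3.80 through 4.28 to 4.49 in unstimulated explants of days 3 to 27. The ranges lay over each other. The average difference was 0.09 ± 0.07, with a 95% interval of -0.06 to 0.23, and was higher in 8 of 15 pairs (limma adjusted p = 0.403). Repeating the quantile normalisation brought it past the threshold at 0.17 (adjusted p = 0.0481). Both target genes thus have their own values, with AXIN2 past the test and LEF1 not, and the difference between them was not tested.

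Without reference to the test, the 3 stimulated and the 3 unstimulated arrays of a day did not overlap for 3 of the 8 genes at day 3 (FRZB, SFRP5 and WIF1), against 17.0% of all probe sets. This held for 3 genes at day 9 (FRZB, SFRP1 and AXIN2), against 22.2%, and for 5 at day 15, against 27.4%. It held for 3 genes at day 21 (FRZB, SFRP1 and SFRP5), against 28.7%, and for 5 at day 27, against 27.3%. FRZB was in this group at every day.

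Against day 0, the genes fell into different patterns. FRZB was 10.63, 11.18 and 10.50 at day 0, and SFRP5 was 5.93, 5.82 and 5.79. AXIN2 was 6.97, 6.68 and 6.99 at day 0. In unstimulated culture these 3 genes rose above their day 0 level, and 3 of the 8 genes were called against 6.90% of all probe sets. Unstimulated days 3 to 27 minus day 0 gave 1.81 ± 0.27 for FRZB (limma adjusted p = 5.42e-05), 1.30 ± 0.27 for SFRP5 (adjusted p = 0.00317) and 0.61 ± 0.18 for AXIN2 (adjusted p = 0.0347). The SFRP5 call was lost without replicate 1 (adjusted p = 0.115) or replicate 3 (adjusted p = 0.124), and the AXIN2 call without replicate 2 (adjusted p = 0.478) or replicate 3 (adjusted p = 0.282). The moderated F-test over unstimulated days 0 to 27 called the same 3 genes, against 4.66% of all probe sets, with adjusted p = 0.00187 for FRZB, 0.00629 for SFRP5 and 0.0426 for AXIN2. Each of the 3 lost this call when arrays were left out: FRZB without replicate 1 (adjusted p = 0.197), SFRP5 without replicate 1 (adjusted p = 0.273) or replicate 3 (adjusted p = 0.141), and AXIN2 without replicate 2 (adjusted p = 0.625), replicate 3 (adjusted p = 0.351) or the unstimulated day 27 array of replicate 3 (adjusted p = 0.0712). WIF1, at an adjusted p of 0.295, did not pass it with all arrays.

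In stimulated culture, DKK1 was the only one of the 8 genes called against day 0, with 11.1% of all probe sets called. DKK1 was 3.50, 3.54 and 4.26 at day 0, and stimulated days 3 to 27 minus day 0 gave 1.11 ± 0.26 (limma adjusted p = 0.00457). That call was lost without replicate 2 (1.07, adjusted p = 0.132). In unstimulated explants the DKK1 difference from day 0 was -0.02 ± 0.26 (adjusted p = 0.981). FRZB in stimulated explants differed from day 0 by -0.80 ± 0.27 (adjusted p = 0.054). It passed the test with the replicate block fixed (adjusted p = 0.0284) or random (0.035) and with only probe sets above the median mean (0.0303). It also passed with the quantile normalisation repeated (adjusted p = 0.0424) and with eBayes with trend and robust (0.0449). Without replicate 3 it was -1.16 (adjusted p = 0.00961), and without replicate 2 it was -0.33 (adjusted p = 0.676). SFRP5 in stimulated explants differed from day 0 by 0.16, with a 95% interval of -0.41 to 0.72 (adjusted p = 0.85), and AXIN2 by -0.13, with an interval of -0.50 to 0.23 (adjusted p = 0.785). For both genes the stimulated level was thus not distinguishable from day 0 at this number of arrays. The comparisons of both arms with day 0 share the same 3 day 0 arrays.

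**Figure D3:**
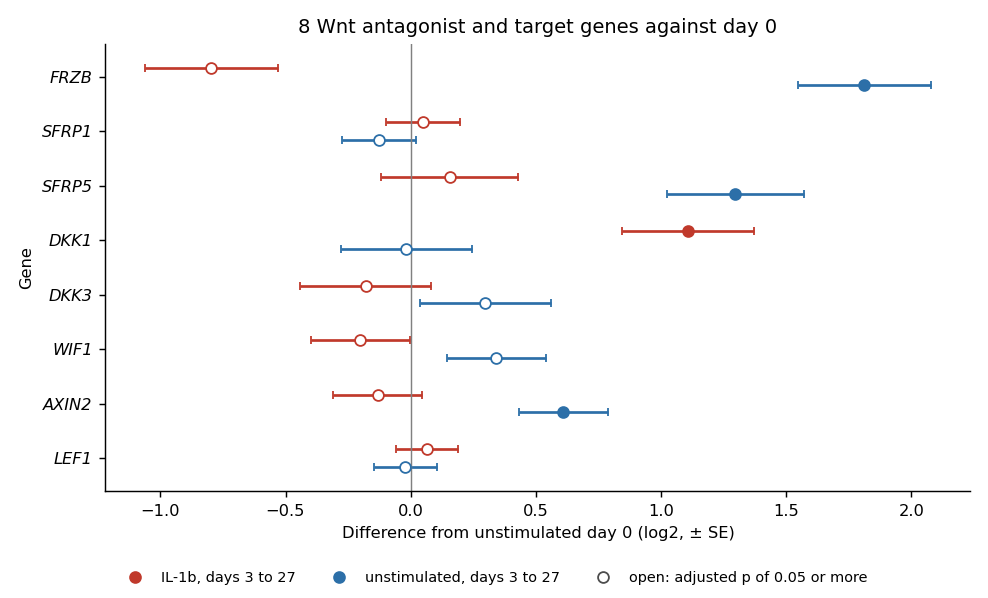
Difference from unstimulated day 0 (log2, horizontal axis, mean of days 3 to 27 minus day 0, bars are standard errors) for 8 genes in stimulated (red) and unstimulated (blue) explants, filled where the adjusted p was under 0.05 and open otherwise. FRZB, SFRP5 and AXIN2 are filled and above 0 in unstimulated explants, at 1.81, 1.30 and 0.61, and DKK1 is filled and above 0 in stimulated explants, at 1.11.

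By day 3 little of this could be called. In unstimulated explants at day 3 minus day 0, limma called 0 of the 8 genes, against 0.401% of all probe sets. An unadjusted p under 0.05 was reached by 2 of the 8 genes and by 2259 of the 25923 probe sets. FRZB was 1.46 ± 0.34 higher at day 3 with no overlap between the groups (adjusted p = 0.058, or 0.0232 with the replicate block and 0.18 to 0.452 without 1 replicate number), and SFRP5 differed by 1.09 (adjusted p = 0.26), also with no overlap, against 14.2% of all probe sets with none. In stimulated explants at day 3 minus day 0, limma called 0 of the 8 genes, against 4.24% of all probe sets, and FRZB differed by 0.17 (adjusted p = 0.918). There an unadjusted p under 0.05 was reached by 0 of the 8 genes and by 3708 of the 25923 probe sets. Between days 3 and 27 of unstimulated culture limma called 0 of the 8 genes, against 1.01% of all probe sets. AXIN2 (0.63, adjusted p = 0.229) was the only one of the 8 at an unadjusted p under 0.05, against 3034 of the 25923 probe sets. For FRZB, most of the distance from day 0 to the unstimulated level of day 27 was thus already there at day 3, since the means were 10.77 ± 0.36 for day 0, 12.23 ± 0.13 for day 3 and 12.71 ± 0.11 for day 27 (SD over 3 arrays).

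Over the 11 group means, several of the 8 genes ran alike. Pearson's r was 0.88 between AXIN2 and DKK3, 0.85 between AXIN2 and FRZB, 0.85 between AXIN2 and SFRP5, 0.82 between FRZB and SFRP5, and -0.78 between FRZB and DKK1. These are descriptions over 11 points that share arrays, not tests. Among the other 16660 named genes, those with the pattern most like FRZB were PLXDC2 (r = 0.993), THYN1 (0.991) and GSTA4 (0.988). For SFRP5 they were SPINT2 (0.964), SELENOP (0.950) and ENKD1 (0.949). For AXIN2 they were GLCCI1 (0.977), GLI2 (0.971), a transcription factor of Hedgehog signalling, and PEX6 (0.965). For DKK1 they were CFDP1 (0.949), CLN3 (0.947) and MRPS15 (0.947). For DKK3 the highest was SLC26A5 (0.966) and for WIF1 it was IQCA1 (0.956). With so many genes and so few points, high values are common, and for SFRP1 and LEF1 the highest reached 0.929 and 0.926.

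To place these genes within the pathway, 82 other Wnt genes were listed by role, of which 76 had a probe set with 1 symbol. On average over days 9 of the 76 were higher and 14 were lower in stimulated explants, while 53 missed the threshold. That is 30.3% called, against 30.8% of all probe sets, so that the other Wnt genes as a list were called about as often as any probe set. Their median difference was -0.118. By day, 0 of the 76 were called at day 3, against 3.32% of all probe sets. An unadjusted p under 0.05 in limma was reached there by 9 of the 76 and by 3082 of the 25923 probe sets, a like share. The list had 7 calls at day 9 (9.21%, against 7.54% of all probe sets), 15 at day 15 (19.7%, against 12.7%), 15 at day 21 (19.7%, against 12.1%) and 16 at day 27 (21.1%, against 14.8%).

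**Figure D4:**
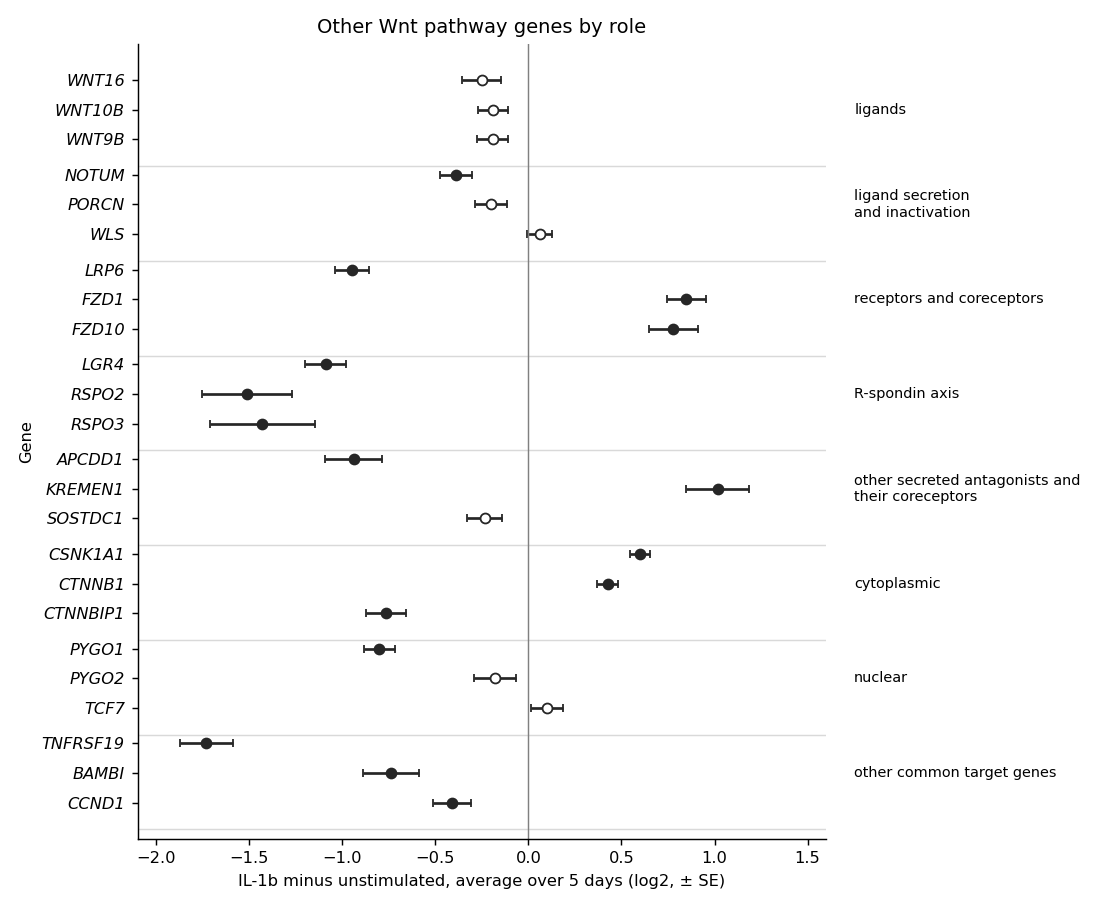
Average difference over 5 days between stimulated and unstimulated explants (log2, horizontal axis, bars are standard errors) for the up to 3 genes with the smallest p in each of 8 role lists of the Wnt pathway, filled where the adjusted p was under 0.05 and open otherwise. TNFRSF19, RSPO2, RSPO3 and LGR4 lie below -1 and KREMEN1 lies above 1.

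None of the 18 measured Wnt ligand genes passed limma's test on average, against 30.8% of all probe sets called. WNT16 was the nearest at -0.25 (adjusted p = 0.0724). Ligand genes with an unadjusted p under 0.05 were WNT16, WNT10B, WNT9B and WNT2, against 10281 of the 25923 probe sets. Several ligand probe sets lay below the median signal of all probe sets (5.27), such as WNT5A (4.04) and WNT6 (4.21) in stimulated explants. Differences there can be understated by RMA. Of 3 genes of ligand secretion and inactivation, NOTUM, an enzyme that removes the lipid of Wnt ligands, was lower by 0.39 ± 0.09 (adjusted p = 0.000769). NOTUM averaged 4.80 in stimulated explants and 4.70 at day 0. PORCN and WLS did not pass, although PORCN did with only probe sets above the median mean (adjusted p = 0.0478).

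Among 14 receptor and coreceptor genes, 3 were higher, 2 were lower and 9 did not pass, against 30.8% of all probe sets called. LRP6, a coreceptor that DKK1 blocks, differed by -0.95 ± 0.09, lower in 15 of 15 pairs (limma adjusted p = 4.34e-09). LRP5, which DKK1 also blocks, did not pass (-0.12, adjusted p = 0.361). FZD1 and FZD10, both Frizzled receptors, were higher by 0.85 ± 0.10 in 15 of 15 pairs (adjusted p = 2.31e-07) and by 0.78 ± 0.13 in 14 of 15 pairs (adjusted p = 2.65e-05). Another Frizzled gene, FZD9, went the other way at -0.58 ± 0.10, lower in 14 of 15 pairs (adjusted p = 4.51e-05). FZD2, FZD3, FZD4, FZD6 and FZD8 did not pass. The LRP6 difference widened from -0.21 at day 3 through -0.67, -1.04 and -1.30 to -1.52 at day 27. Its change between day 3 and day 27 was -1.32 (limma adjusted p = 0.0233). LRP6 was the only one of the 76 genes called in that contrast (1.32%), close to the 1.10% of all probe sets called. The LRP6 call was lost without any 1 of the 3 replicate numbers (adjusted p from 0.0791 to 0.423). DKK1 was thus higher and LRP6 lower in the same stimulated explants at day 27, and a link between the genes was not tested.

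The R-spondin axis, whose ligands bind LGR receptors and so keep Frizzled receptors at the cell surface, had 9 measured genes. Of these, 4 were lower, 0 were higher and 5 missed the threshold, against 15.3% of all probe sets lower and 15.6% higher. LGR4 differed by -1.09 ± 0.11 (limma adjusted p = 7.87e-09) and was lower in 15 of 15 pairs. RSPO2 differed by -1.51 ± 0.24 (adjusted p = 1.53e-05) in 12 of 15 pairs, and RSPO3 by -1.43 ± 0.28 (adjusted p = 0.000212) in 14 of 15. The other gene called lower, ZNRF3, an enzyme that removes Frizzled receptors, differed by -0.31 (adjusted p = 0.0243). RSPO3 in unstimulated explants spread widely, from 5.17 to 7.76 at day 21, against 3.16 to 3.56 in stimulated explants of that day.

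Of 9 other antagonists and their coreceptors, 1 was higher and 1 was lower, against 30.8% of all probe sets called. KREMEN1, a receptor that works with DKK1 to remove LRP6 from the membrane, was higher by 1.02 ± 0.17 in 12 of 15 pairs (limma adjusted p = 2.68e-05). APCDD1, a membrane-bound Wnt inhibitor, differed by -0.94 ± 0.15 and was lower in 15 of 15 pairs (adjusted p = 2.02e-05). The antagonists SFRP2, SFRP4, DKK2, DKK4, SOST and SOSTDC1 did not pass. SOSTDC1 did with the replicate block fixed (adjusted p = 0.0461) or random (0.0476). All of these except SOST lay below the median signal of all probe sets (5.27) in both arms, where differences can be understated.

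Inside the cell, 5 of 13 cytoplasmic genes were higher, 2 were lower and 6 did not pass, against 30.8% of all probe sets called. CSNK1A1, a kinase that primes β-catenin for destruction, was higher in stimulated than in unstimulated explants by 0.60 ± 0.06 (limma adjusted p = 1.39e-09). CTNNB1, which encodes β-catenin, was higher by 0.43 ± 0.06 (adjusted p = 7.64e-07). CTNNBIP1, an inhibitor of the contact between β-catenin and TCF factors, was lower by 0.77 ± 0.11 (adjusted p = 2.55e-06). Of 6 nuclear genes PYGO1, a coactivator in the β-catenin complex, was lower by 0.80 ± 0.08 (adjusted p = 1.63e-08). TCF7, TCF7L1, TCF7L2, BCL9 and PYGO2 did not pass. Of 4 other common target genes 3 were lower, against 30.8% of all probe sets called. These were TNFRSF19 by 1.73 ± 0.14 (adjusted p = 1.51e-10, lower in 15 of 15 pairs), BAMBI by 0.74 ± 0.15 (adjusted p = 0.000353) and CCND1 by 0.41 ± 0.10 (adjusted p = 0.00263). MYC differed by 0.16 (adjusted p = 0.366). All of these genes are also known to answer to other pathways.

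**Figure D5:**
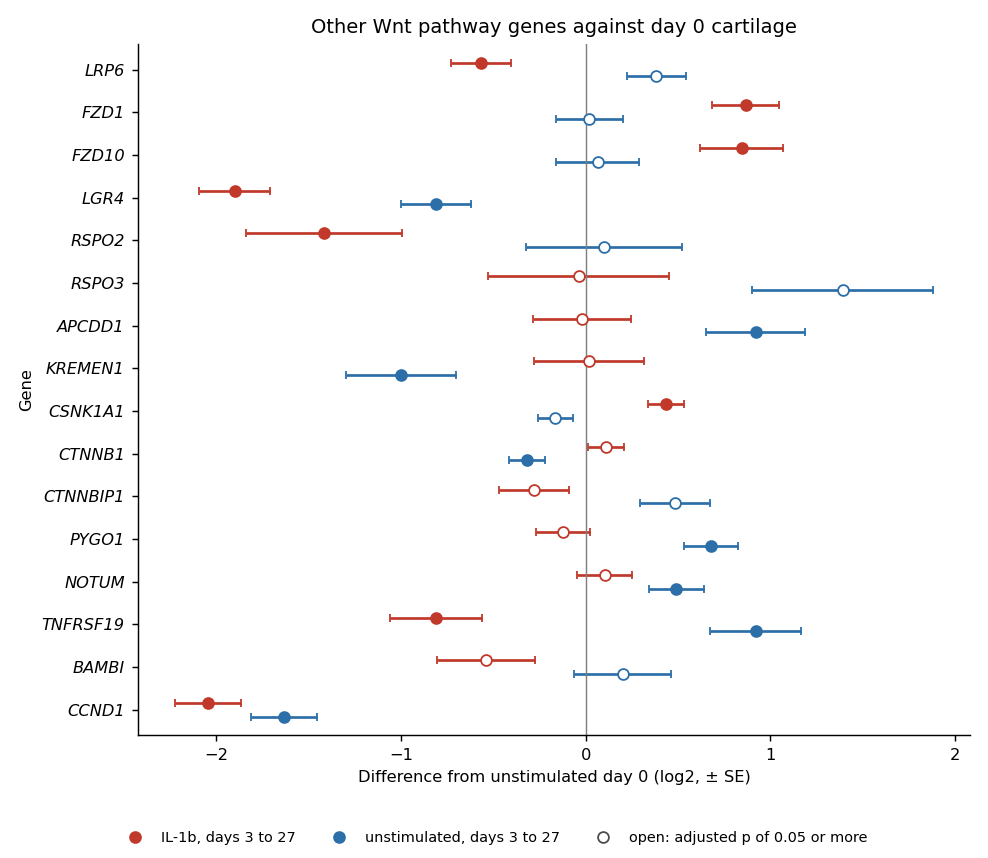
Difference from unstimulated day 0 (log2, horizontal axis, mean of days 3 to 27 minus day 0, bars are standard errors) for the 16 named pathway genes called on average, in stimulated (red) and unstimulated (blue) explants, filled where the adjusted p was under 0.05 and open otherwise. LGR4 and CCND1 are filled and below 0 in both arms, TNFRSF19 is filled on opposite sides of 0, at -0.81 and 0.92, and FZD1 and FZD10 are filled only in stimulated explants.

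Against day 0, these pathway genes differed in which arm moved. FZD1 was 0.87 above day 0 in stimulated explants (limma adjusted p = 0.00133), against 0.02 in unstimulated explants. LRP6 differed from day 0 by -0.56 in stimulated explants (adjusted p = 0.0203), against 0.38 in unstimulated explants (adjusted p = 0.183). APCDD1 differed from day 0 by -0.02 in stimulated explants, against 0.92 in unstimulated explants (adjusted p = 0.0342). KREMEN1 differed from day 0 by 0.02 in stimulated explants, against -1.0 in unstimulated explants (adjusted p = 0.0378). In unstimulated explants CTNNB1 differed from day 0 by -0.32, PYGO1 by 0.68 and NOTUM by 0.49. The CTNNB1 and NOTUM calls were lost without any 1 of the 3 replicate numbers. Both were also lost with the quantile normalisation repeated (limma adjusted p = 0.0834 and 0.0824). TNFRSF19 differed from day 0 by -0.81 in stimulated explants (adjusted p = 0.0306), against 0.92 in unstimulated explants (adjusted p = 0.0203). LGR4 fell below day 0 in both arms, by 1.90 in stimulated explants (adjusted p = 6.23e-08) and by 0.81 in unstimulated explants (adjusted p = 0.0081). CCND1 likewise fell by 2.04 in stimulated explants (adjusted p = 4.59e-09) and by 1.63 in unstimulated explants (adjusted p = 1.54e-06). Of the calls against day 0 in these sentences, those of LGR4 and CCND1 in stimulated explants and of CCND1 in unstimulated explants were kept without each of the 3 replicate numbers, and each of the others was lost without at least 1 of them.

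Some markers of cell types also differed between stimulated and unstimulated explants. Of 10 chondrocyte markers measured, 6 were lower in stimulated explants on average and 4 did not pass, and the mean log2 signal of the list per array ranged from 6.39 to 7.83 in stimulated explants, against 8.14 to 8.74 in unstimulated explants of days 3 to 27 and 8.25 to 8.58 at day 0. CNMD differed by -3.77, COMP by -2.17, COL11A1 by -1.91, COL2A1 by -1.35, ACAN by -1.12 and COL11A2 by -0.64, whereas SOX9 (0.18) and HAPLN1 (-0.09) did not pass. Lists of other cell types had 2 higher and 1 lower of 6 synovial and fibroblast markers, 1 higher of 5 macrophage markers, 3 lower of 5 endothelial markers, 2 lower of 5 osteoblast and osteocyte markers, 1 lower of 5 lymphocyte markers and 0 of 2 red cell markers, against 30.8% of all probe sets called. The part of these shifts in the results for the 8 genes was not tested. Array medians lay between 5.16 and 5.38, replicate arrays of a group correlated at 0.960 to 0.989, and the unstimulated day 27 array of replicate 3 stood apart on the second principal component, at -58.2 against -23.6 to 33.3 for all other arrays. The number of arrays, 3 per group, limits the precision of each value.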

How the data were processed

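The authors deposited 1 table of log2 expression values per probe set for 33 arrays. The submitters' processing notes name RMA, limma and Affymetrix Expression Console. No source used here gives the log base, and log2 was inferred from a range of 1.50 to 13.9. Per the labels' protocols, 2 ng of total RNA was amplified per sample. RMA corrects background, equalises array distributions, which removes changes shared by most genes, and summarises probes. The values were not normalised again. Of the probe sets, 16789 had 1 symbol, 343 several and 8791 none.

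limma 3.58.1 (R 4.3.3) fitted 1 mean per group to all probe sets with eBayes (22 residual degrees of freedom), with two-sided p-values adjusted by Benjamini-Hochberg. The fit was run on simulated data with independent noise for each array. Those data held no effect of the replicate number, so they cannot show how a fit without a block does when there is one. The 8 genes and all lists were chosen with earlier results of these data known. The text names all 8 genes, in each role list the up to 3 genes with the smallest p in the average over days, and for each of the 8 genes those with the highest correlation over group means (up to 3); the other pathway genes and markers with values were named after these were seen. No sequence or coordinates are given.

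Arrays of 1 replicate number go with 1 prefix of the sample descriptions. As a check, deviations from group means were correlated between arrays. The median was 0.164 for the 165 pairs with equal numbers and -0.0841 for the 330 others, and the 15 pairs of both arms with equal day and number gave at least 0.0781. All 33 arrays had their highest mean correlation with their own number. A batch that goes with the number cannot be told apart from a horse. Since the fit holds no block, averages over days treat arrays of 1 number as independent. The alternatives were a fixed or random replicate block, only probe sets above the median mean, another quantile normalisation, eBayes with trend and robust, the median over probe sets of a symbol, only the groups of a contrast, and leaving out each replicate number or the unstimulated day 27 array of replicate 3.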

Additional observations from a re-analysis of the deposited data

Results flagged for a closer look

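The difference between stimulated and unstimulated explants was not the same at day 27 as at day 3 for 2 of the 8 genes and for LRP6, each by a test of that change itself in limma. This test called 1.10% of all probe sets, and LRP6 was the only one called of the 76 other Wnt genes (1.32%). For FRZB, day 27 minus day 3 of the difference was -2.19 (adjusted p = 0.0225), from differences of -3.48 at day 27 and -1.29 at day 3. For DKK1 it was 2.25 (adjusted p = 0.0169), from 2.09 at day 27 and -0.15 at day 3. For LRP6 it was -1.32 (adjusted p = 0.0233), from -1.52 at day 27 and -0.21 at day 3. The FRZB call was lost without replicates 1 or 2 or without the unstimulated day 27 array of replicate 3, the DKK1 call without replicates 2 or 3, and the LRP6 call without any 1 of the 3 replicate numbers. The moderated F-test over all 5 days called none of the 3.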

How the results depend on the processing

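Over the alternatives that kept all arrays, 441 of 471 values for the 8 genes kept their direction and their side of the threshold, 7 lost and 22 gained a call, and 1 changed sign. Over those that left out arrays, 244 of 304 did, 44 lost and 3 gained a call, and 13 changed sign. Of the results called with all arrays, 0 changed sign. Leaving out a replicate number removes 11 of 33 arrays, so fewer calls are made by construction, and over all probe sets the average over days then called 20.2% to 25.4%.

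With the replicate block, the number of the 8 genes called was 2 at day 3, 3 at days 9 and 21, where AXIN2 was added, 6 at day 27, where WIF1 was added, 2 for stimulated explants against day 0, 1 for unstimulated day 3 against day 0 and 2 in the F-test over days, and the random replicate block gave 3 at days 9 and 21, and 2 and 1 for the comparisons with day 0. Another quantile normalisation gave 8 in the average over days, with SFRP1 and LEF1 added, 0 at day 3, 3 at day 27 and 2 for stimulated explants against day 0, and eBayes with trend and robust gave 2 for stimulated and 1 for unstimulated day 3 explants against day 0. With only probe sets above the median mean, where SFRP1, DKK1 and LEF1 drop out, 5 were called in the average, 4 at day 15 and 3 at day 21, and 1 was called for the change between days 3 and 27 of the difference, 1 for unstimulated day 3 against day 0, and 1 for stimulated explants both in day 27 minus day 3 and in their F-test. With only the groups of the contrast, 1 was called at day 9, 4 at day 15 (without WIF1), 4 at day 27 (without SFRP5) and 1 in stimulated day 27 minus day 3. Without the unstimulated day 27 array of replicate 3, 3 were called at day 27, 1 for the change between days 3 and 27 and 2 in the F-test of unstimulated explants. The share of all probe sets called in each of these fits is not given here, so these counts are not set against it. The cause of these shifts was not tested.

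Leaving out each replicate number in turn, the 8 genes gave 5 to 6 calls in the average over days, 0 to 1 at day 3 (0.837% to 1.73% of all probe sets), 1 to 2 at day 9 (2.46% to 4.90%), 2 to 4 at day 15 (4.99% to 8.83%), 2 at day 21 (5.97% to 8.73%) and 3 to 4 at day 27 (7.29% to 10.0%). They gave 0 to 1 for the change between days 3 and 27 (0.00386% to 0.640% of all probe sets), 1 to 2 for unstimulated (2.33% to 3.87%) and 0 to 2 for stimulated explants (4.98% to 7.63%) against day 0, 0 to 2 for stimulated day 27 minus day 3 (0.0772% to 2.31%), 1 to 2 in the F-test of unstimulated (1.05% to 1.70%) and 0 to 1 in that of stimulated explants (0.0116% to 0.536%). The other pathway genes gave 20 to 23 calls.

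All changes of sign were in differences near 0 that did not pass the test. Another quantile normalisation gave 0.040 for LEF1 at day 27, -0.021 for the average of WLS and -0.0018 for FZD1 in unstimulated explants against day 0. Without 1 replicate number, stimulated minus unstimulated ranged from -0.29 to 0.045 for DKK1 at day 3, from -0.030 to 0.027 for LEF1 at day 3, from -0.25 to 0.17 for DKK3 at day 9, from -0.0022 to 0.15 for LEF1 at day 15 and from -0.16 to 0.11 for WIF1 at day 21. Unstimulated explants minus day 0 ranged from -0.24 to 0.0011 for SFRP1, from -0.29 to 0.26 for DKK1, from -0.15 to 0.048 for LEF1 and from -0.014 to 0.045 for FZD1 (0.062 without the unstimulated day 27 array of replicate 3). Stimulated explants minus day 0 ranged from -0.037 to 0.13 for SFRP1, from -0.31 to 0.0038 for WIF1, from -0.013 to 0.12 for LEF1, from -0.46 to 0.39 for KREMEN1 and from -0.080 to 0.044 for APCDD1.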
